A study of Mus musculus with 8 samples.

Results

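Histone genes were followed in SV-LECs, an immortalized line of mouse lymphatic endothelial cells, with and without TGFβ1. The members were all genes of the count table whose symbol marks a linker histone (H1f and a number) or a clustered core histone (H2ac, H2bc, H3c or H4c and a number). This gave 61 of 55471 genes. Of these, 57 are cluster genes on chromosomes 3 and 13 (6 H1, 15 H2A, 14 H2B, 12 H3 and 10 H4 genes), H1f0 and H1f10 are replacement linker histones, and H1f7 and H1f8 are germ-line linker histones. 1 of the 15 H2A genes, H2ac14, is annotated as a pseudogene.

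The cells were left untreated or received 10 ng/ml TGFβ1 for 72 h, with 4 libraries per group. All 8 libraries came from the same line. The study's methods name a growth medium for the line but do not state the medium of the RNA samples separately. The study's methods call the samples technical replicates, so the errors and p-values cover technical variation between libraries and not independent experiments. Of 11 lymphatic endothelial marker genes, 6 had at most 5 counts in any library (Prox1, Lyve1, Pecam1, Cdh5, Ccl21a and Reln). Tek had 8 to 18 counts per library, whereas Flt4, Kdr, Nrp2 and Pdpn had 225 or more. Among markers of other cell types, Pdgfra had 1105 to 4482 counts per library, Pdgfrb 878 to 1790 and Krt14 669 to 1057. Cd68, Krt18, Myh11 and Des had 2 to 382, and Ptprc, Adgre1, Cd3e, Cd79a and Epcam had at most 7. The cell type is therefore the label given by the study, and these markers do not establish it here.

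Cluster histone genes supply the bulk of histones for new chromatin during DNA replication. Their mRNAs normally end without a poly(A) tail, in a short stem-loop that is bound by the protein encoded by Slbp and cut by a dedicated 3′ processing machinery. Replacement histones are encoded by genes outside this system, have polyadenylated mRNAs and are made through the cell cycle. Linker histones of the H1 family bind the DNA that enters and leaves the nucleosome, whereas H2A, H2B, H3 and H4 form its core. The libraries were prepared from poly(A) RNA. Counts on cluster genes therefore refer to RNA captured in poly(A) libraries, and the total amount of their mRNA was not measured. Whether the captured RNA carried a poly(A) tail was not tested.

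The stem-loop was searched in the transcript models of GENCODE M21 (build GRCm38) as a run that opens with GG and ends with CC, holds CTT and AG on either side of the loop, and whose first 6 bases can pair with its last 6. It was found in 38 of 57 cluster genes (66.7%), in 0 of the 4 other members and in 61 of 55450 genes of the annotation (0.110%). The following 26-base windows, 5′ to 3′ on the strand of the gene and with the stem-loop in capitals, are those of the 5 cluster genes that passed the count filter and contain it, and of H2ac6, the next most frequently counted one.
H1f2: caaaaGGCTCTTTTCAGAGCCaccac
H1f3: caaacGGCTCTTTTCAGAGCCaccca
H1f4: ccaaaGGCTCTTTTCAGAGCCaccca
H2bc6: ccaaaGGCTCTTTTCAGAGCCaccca
H2ac6: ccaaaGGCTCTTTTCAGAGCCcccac
H4c9: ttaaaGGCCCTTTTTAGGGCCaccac
The same stem-loop letters stood in H1f2, H1f3, H1f4, H2bc6 and H2ac6, and the H4c9 loop and stem differed from them. The model of H2bc4, the remaining cluster gene that passed the filter, has 2 exon blocks and contained no match. A match describes the letters of the model and not where the RNA of these cells ended.

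Promoter windows of 300 bases, from 250 before to 50 after the RefSeq start (GRCm38.p6), were available for 55 of the 61 members in 56 sequences. H2bc4 was not among them. The windows of H1f2 and H1f4 are shown as linker histone genes of the cluster, H2ac6 as the window that reaches into the gap between H2ac6 and H2bc4, and H1f0 and H1f10 as the replacement genes. Capitals mark AAACACA (the H1 box), CCAAT (the CCAAT box), TATAAA (the TATA box) and ATTTGCAT (the octamer), each searched on both strands.
H1f2, chr13:23738557-23738856, plus strand: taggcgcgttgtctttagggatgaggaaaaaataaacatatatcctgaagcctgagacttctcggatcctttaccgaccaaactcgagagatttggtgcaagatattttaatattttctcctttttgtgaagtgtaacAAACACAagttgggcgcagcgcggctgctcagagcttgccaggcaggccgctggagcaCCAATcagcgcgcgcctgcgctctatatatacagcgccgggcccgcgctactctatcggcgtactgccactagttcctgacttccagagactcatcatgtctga
H1f4, chr13:23622509-23622808, minus strand: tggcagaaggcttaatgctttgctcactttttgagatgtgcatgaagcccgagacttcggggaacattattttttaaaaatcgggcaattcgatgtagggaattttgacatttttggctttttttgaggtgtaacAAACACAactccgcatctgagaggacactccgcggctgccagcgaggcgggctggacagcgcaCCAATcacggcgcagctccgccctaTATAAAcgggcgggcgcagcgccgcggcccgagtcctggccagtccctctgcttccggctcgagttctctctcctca
H2ac6, chr13:23683910-23684209, minus strand: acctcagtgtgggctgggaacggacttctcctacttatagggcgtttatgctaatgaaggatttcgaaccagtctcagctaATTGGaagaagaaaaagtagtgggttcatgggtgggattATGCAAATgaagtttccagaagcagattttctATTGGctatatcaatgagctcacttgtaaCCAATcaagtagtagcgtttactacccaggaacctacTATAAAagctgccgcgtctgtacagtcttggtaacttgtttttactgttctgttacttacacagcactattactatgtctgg
H1f0, chr15:79027962-79028261, plus strand: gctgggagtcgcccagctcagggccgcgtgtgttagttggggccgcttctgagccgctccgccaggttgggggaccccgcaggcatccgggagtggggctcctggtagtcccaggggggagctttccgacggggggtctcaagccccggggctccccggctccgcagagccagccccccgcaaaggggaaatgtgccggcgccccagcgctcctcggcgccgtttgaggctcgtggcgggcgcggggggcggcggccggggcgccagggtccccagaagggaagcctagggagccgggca
H1f10, chr6:87981433-87981732, minus strand: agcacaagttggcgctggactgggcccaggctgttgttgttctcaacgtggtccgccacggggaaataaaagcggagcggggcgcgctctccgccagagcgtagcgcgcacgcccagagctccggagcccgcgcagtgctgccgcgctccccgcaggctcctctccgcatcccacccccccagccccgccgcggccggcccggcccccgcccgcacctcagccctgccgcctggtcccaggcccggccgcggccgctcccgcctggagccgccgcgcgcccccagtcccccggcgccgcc
The H1 box stood in 5 of 6 cluster H1 promoters and in 7.18% of all 32851 promoters. The CCAAT box was found in 47 of 56 member promoters and in 37.4% of all promoters, and only 3 of 9 H4 promoters held it. The octamer was present in 6 of 14 H2A and 7 of 13 H2B promoters, compared with 1.74% of all promoters. TATAAA was present in 30 of 56 member promoters, compared with 13.6% of all. None of the 4 motifs was found in the windows of H1f0 and H1f10, which says only that these letters are not in those windows. The H1f0 window lies upstream of the start at position 79028450 given by GENCODE M21.

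Only 8 of the 61 members had enough reads for the test across all genes. These were H1f0, H1f10 and the cluster genes H1f2, H1f3, H1f4, H2bc4, H2bc6 and H4c9. After TGFβ1 all 6 of these cluster genes were higher and both replacement genes were lower at an FDR of 0.05 (edgeR likelihood ratio test). Among the 13818 genes tested, 37.6% were higher and 38.0% were lower, so a change in either direction was common in this comparison. The median log2 fold change of the 6 cluster genes was 3.04 and that of all genes tested was -0.01. H1f3, H1f4, H2bc6 and H4c9 passed the filter only through their counts in the TGFβ1-treated libraries and had to differ, so the count of 6 and the median of 3.04 are descriptions and support no difference from other genes. The 2 cluster genes free of this, H1f2 and H2bc4, had log2 fold changes of 2.65 and 2.90. H1f2, H2bc4, H1f0 and H1f10 would also have passed in the untreated libraries alone.

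**Figure D1:**
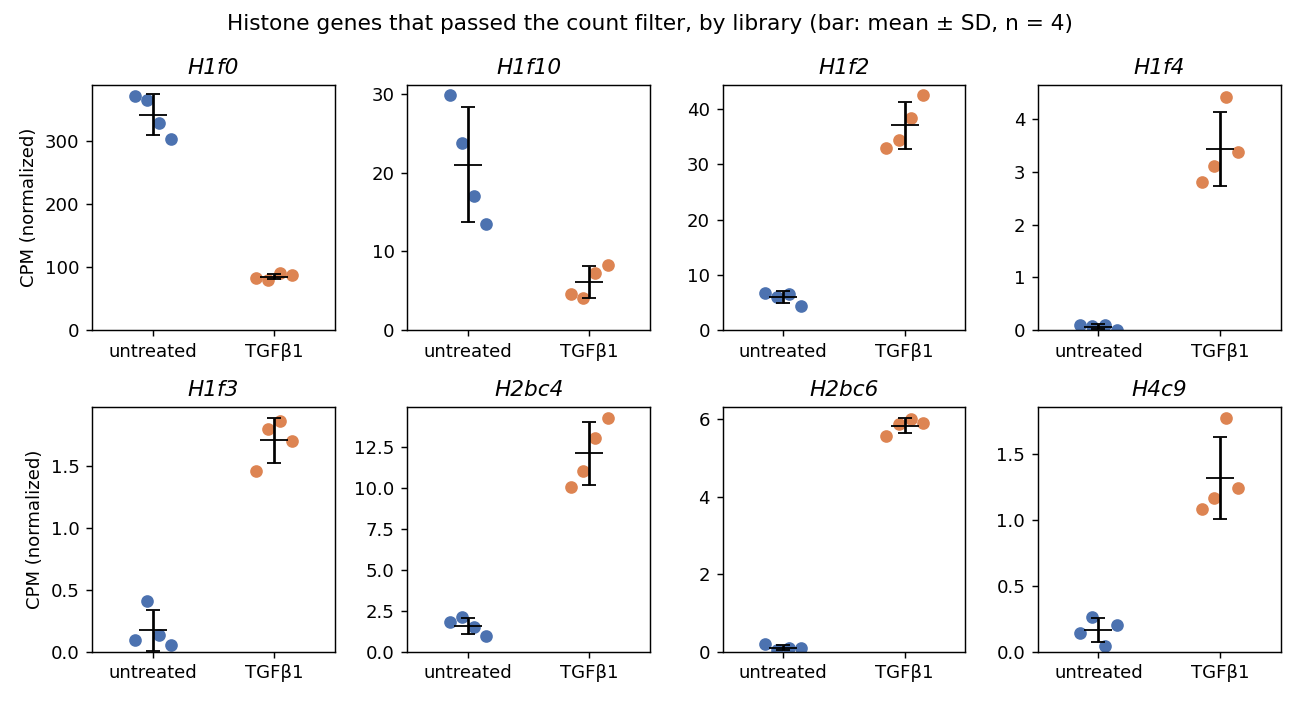
Normalized CPM (vertical axes, each from 0) of the 8 histone genes that passed the count filter in the 4 untreated and 4 TGFβ1-treated libraries. Points are libraries and bars are the mean ± SD. No gene has overlapping groups, H1f0 and H1f10 are lower after TGFβ1 and the 6 cluster genes are higher. For H1f3, H1f4, H2bc6 and H4c9 the filter largely fixed this. Of all genes tested, 34.7% had every treated library above every untreated one and 35.1% had every treated library below.

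H1f0, at chr15:79028450-79030504 on the plus strand, encodes a replacement linker histone that is best known from resting and differentiated cells. Its level was 372, 364, 328 and 303 CPM (counts divided by the normalized library size) in the untreated libraries and 82.1, 79.7, 89.7 and 87.3 CPM in the TGFβ1-treated libraries. Every treated library was below every untreated one, and the spread within each group was small beside the gap. The mean fell from 342 ± 32.4 to 84.7 ± 4.60 CPM (SD, n = 4 each), a 4.03-fold lower level (log2 fold change -2.01, SE 0.0658, edgeR FDR 2.30e-192). With 1517 to 9703 counts per library, H1f0 was the most deeply counted member. Its model overlaps Gm49544 on the opposite strand by 163 exon bases, and that gene had 1 to 5 counts per library.

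H1f10, at chr6:87980421-87981637 on the minus strand, encodes the other replacement linker histone. It was measured at 29.9, 23.8, 17.0 and 13.5 CPM without treatment and at 4.60, 4.09, 7.18 and 8.31 CPM after TGFβ1. The groups did not overlap, but the gap between their nearest libraries, 8.31 and 13.5 CPM, was smaller than the range of the untreated group. The mean went from 21.0 ± 7.27 to 6.04 ± 2.03 CPM (SD, n = 4 each), with a log2 fold change of -1.79 (SE 0.244, edgeR FDR 1.90e-12). The SE was thus larger than that of H1f0.

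The H1f10 model is rich in G and C (71.3%, compared with 52.1% for H1f0), and GC-rich genes moved between libraries in the same order. The GC-rich set used here includes H1f10 itself. For 54 tested genes of at least 65% GC, the median log2 deviation of a library from the mean of all 8 was 0.44, -0.02, -0.16 and -0.29 in the untreated and -0.28, -0.42, 0.23 and 0.45 in the treated libraries. Within both groups this is the order of the H1f10 levels, while the 2 groups overlap. The slope of log2 level on GC content over all tested genes was negative in all untreated libraries (-0.0169 to -0.141 per 10% GC) and positive in all treated ones (0.0376 to 0.128). With the GC slope of each library, centred within its group, as a covariate, the change of H1f10 was again -1.79 (edgeR FDR 1.71e-90). This covariate was chosen after the data were seen, and it cannot take up a GC difference between the group means. On 12.2% of its 75-base stretches H1f10 shares sequence with Gm5577, a gene on the opposite strand that held 7 to 33 counts per library.

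**Figure D2:**
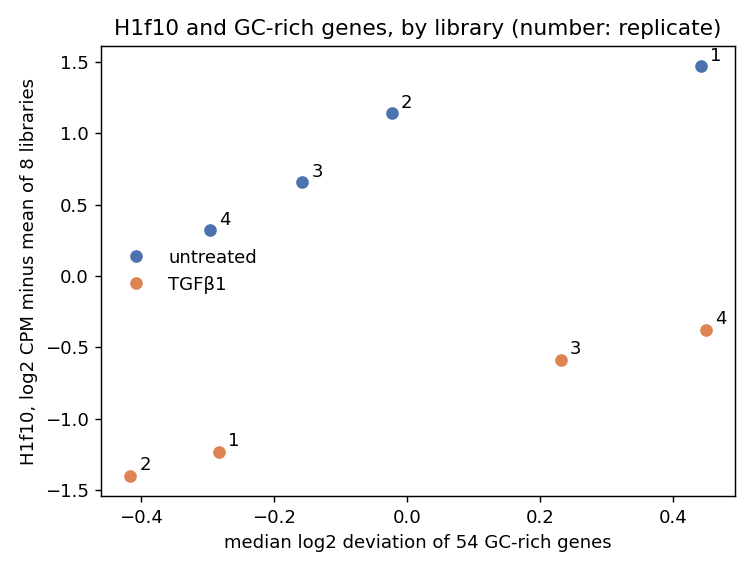
Log2 CPM of H1f10 minus its mean over the 8 libraries (vertical axis) against the median log2 deviation of 54 GC-rich genes from their mean over the 8 libraries (horizontal axis), with 1 point per library, coloured by group and numbered by replicate. The 54 genes include H1f10. Within each group the libraries lie in the same order on both axes, and at like deviations the treated libraries lie below the untreated ones.

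The ratio of H1f0 to H1f10 counts was 12.4, 15.3, 19.2 and 22.4 in the untreated and 17.7, 19.4, 12.4 and 10.5 in the treated libraries. These values overlapped. The difference of the log2 ratio was -0.22 (SE 0.280, 95% interval -0.90 to 0.47), and an exact two-sided permutation test over 70 arrangements gave p = 0.514, where 0.0286 is the smallest value it can reach. A different fall of the 2 replacement genes was therefore not detected, within an interval that still spans both directions.

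H1f2, at chr13:23738808-23740367 on the plus strand, encodes a cluster linker histone and accounted for most reads on cluster genes. Its level was 6.75, 6.01, 6.51 and 4.31 CPM in the untreated libraries and 32.9, 34.5, 38.3 and 42.5 CPM after TGFβ1. The lowest treated library stood far above the highest untreated one. The mean rose from 5.89 ± 1.10 to 37.1 ± 4.27 CPM (SD, n = 4 each), with a log2 fold change of 2.65 (SE 0.114, edgeR FDR 4.11e-117).

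The other linker histones of the cluster were close to 0 without treatment. H1f4, at chr13:23620629-23622558 on the minus strand, had 2, 2, 2 and 0 counts in the untreated and 52, 64, 90 and 87 counts in the treated libraries. The ratio of the summed counts, scaled to library size, was 51.6 (95% exact interval 23.4 to 142, counting error only), and edgeR gave a log2 fold change of 5.57 (SE 0.608, FDR 9.47e-59). H1f3, at chr13:23553262-23560686 on the plus strand, had 2, 11, 3 and 1 counts without and 27, 37, 38 and 44 counts with TGFβ1. Its groups did not overlap, although 11 of its 17 untreated counts came from 1 library. The ratio of summed counts was 9.08 (95% exact interval from 5.48 to 16.0) and the log2 fold change was 3.15 (SE 0.377, edgeR FDR 6.55e-26), which became 4.10 without untreated replicate 2. Both H1f4 and H1f3 passed the count filter only through the treated libraries. A difference was thus largely fixed, and their FDRs and separate groups are descriptions only.

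The 3 remaining cluster H1 genes were not tested. H1f5 had 0, 0, 1 and 3 counts in the untreated and 5, 6, 8 and 9 in the treated libraries, a scaled ratio of 7.40 (2.59 to 29.0) with no overlap. H1f1 had 0, 5, 0 and 0 against 4, 0, 10 and 11 counts, and its groups overlapped. H1f6, a testis-specific linker histone, had 2 counts in all. The germ-line genes H1f7 and H1f8 had 0 and 2 counts, which leaves both undetectable at this depth.

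Levels of different linker histone genes were compared as RPKM, normalized reads per kilobase of exon model. Shares were taken of the RPKM summed over 8 linker histone genes, the 6 of the cluster with H1f0 and H1f10. H1f0 made up 88.9% ± 2.16 of linker histone RPKM in the untreated libraries and 56.8% ± 2.68 in the treated ones (SD, n = 4 each). The share of H1f2 was 2.01% ± 0.266 and 32.6% ± 1.37, respectively. H1f10 contributed 9.04% ± 2.13 and 6.71% ± 1.65. The ratio of H1f0 to H1f2 RPKM was 41.8, 46.0, 38.2 and 53.3 in the untreated and 1.89, 1.75, 1.78 and 1.56 in the treated libraries. H1f0 thus had the higher RPKM of the 2 in every library. After TGFβ1 the mean RPKM was 41.2 for H1f0, 23.8 for H1f2, 4.97 for H1f10, 1.78 for H1f4 and 0.230 for H1f3, compared with 166, 3.78, 17.3, 0.0335 and 0.0233 without it. H1f2 and H1f10 thus changed places in the order of levels. RPKM depends on the annotated length, which was 7425 bases for H1f3 and 1930 for H1f4. In CPM their means after TGFβ1 were 1.71 and 3.43. The shares, ratios and order of levels refer to RNA captured in poly(A) libraries. For the 6 cluster genes this need not follow total mRNA, so the values do not rank total mRNA.

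Among core histone genes of the cluster, H2bc4 was the one with most reads. This H2B gene, at chr13:23684199-23692908 on the plus strand, was measured at 1.83, 2.10, 1.48 and 0.964 CPM without and 10.1, 11.1, 13.1 and 14.3 CPM with TGFβ1. The groups were far apart, and per length H2bc4 was at 1.38 RPKM without and 10.5 RPKM with TGFβ1. The mean rose from 1.60 ± 0.492 to 12.1 ± 1.93 CPM (SD, n = 4 each; log2 fold change 2.90, SE 0.181, edgeR FDR 8.16e-61).

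H2bc6, a further H2B gene, at chr13:23583670-23621124 on the minus strand, had 4, 1, 2 and 2 counts in the untreated and 103, 121, 122 and 152 counts in the treated libraries. The scaled ratio of summed counts was 58.5 (95% exact interval 30.6 to 129) and the log2 fold change was 5.79 (SE 0.487, edgeR FDR 1.85e-126). Because H2bc6 passed the count filter only through the treated libraries, a difference was largely fixed and this FDR is a description only. The models of H2bc6 and H1f4 overlap on the same strand. For each of them, the overlaps with the other and with Gm11398 add up to 816 exon bases. The counting rule for such reads is not given in the sources used here. The values of H2bc6 and H1f4 are thus not fully separate. The RPKM of H2bc6 after TGFβ1 was 1.31 with all annotated exons and 2.33 with its longest transcript.

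H4c9, at chr13:22040636-22041362 on the minus strand, was the single H4 gene tested, with 3, 7, 1 and 4 counts in the untreated and 20, 24, 36 and 32 counts in the treated libraries. The groups did not overlap, the scaled ratio was 7.90 (4.59 to 14.6), and the log2 fold change was 2.94 (SE 0.411, edgeR FDR 4.81e-18). No H3 and no H2A cluster gene was tested. Among the 4 members that would have passed the filter in the untreated libraries alone, H1f2 and H2bc4 lay above and H1f0 and H1f10 below in every treated library, as did 34.7% and 35.1% of all genes tested. The groups of H1f3, H1f4, H2bc6 and H4c9 did not overlap either, which their passage through the filter largely fixed.

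**Figure D3:**
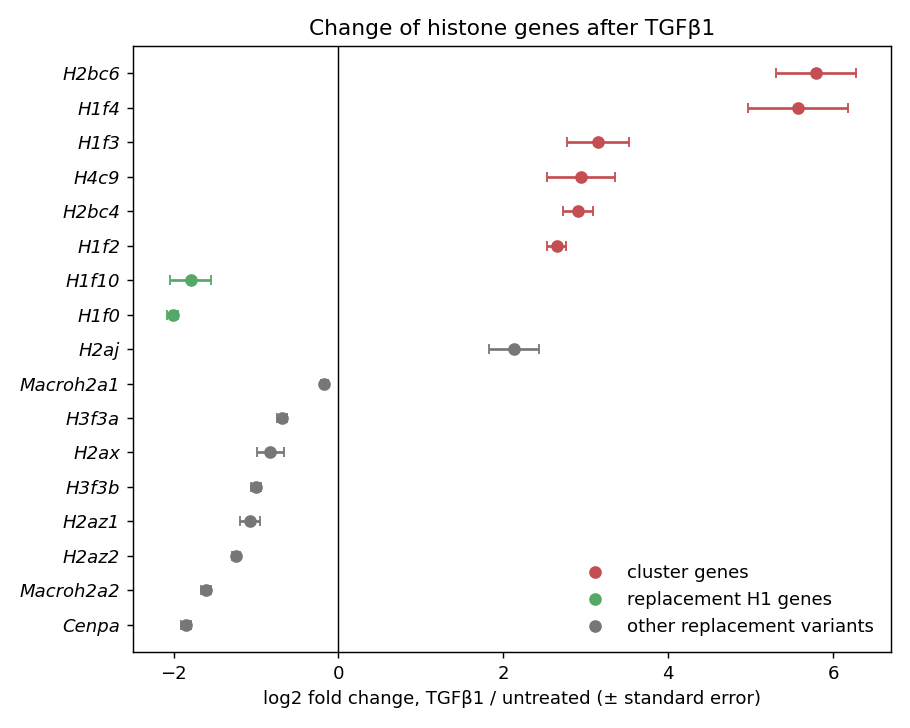
Log2 fold change (horizontal axis, TGFβ1 against untreated, ± standard error) of 17 histone genes. The 6 cluster genes lie between 2.65 and 5.79, H1f10 and H1f0 at -1.79 and -2.01, and of the 9 variants outside the rule only H2aj lies above 0.

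The remaining 51 cluster genes were below the filter, and 14 of them had 0 counts in all libraries. Of the 37 with a count, 34 had a higher mean CPM in the treated libraries and 3 a lower one, compared with 64.2% higher among 13884 genes under the filter with 1 to 92 counts in all. The 3 lower ones were H4c12 (2, 2, 0 and 0 against 1, 0, 0 and 0 counts), H3c10 (3, 0, 0 and 0 against 1, 0, 0 and 0) and an H2B gene with 1 count in each group. All treated libraries lay above all untreated ones for 8 of the 37 genes, compared with 7.63% of the same background. For 15 of the 37 the 95% exact interval of the scaled ratio lay above 1 and for 0 below, compared with 10.9% above and 2.92% below in that background. There were 13 cluster genes with 0 counts in the untreated and at least 1 in the treated libraries, and 0 with the reverse, compared with 26.2% and 12.3% of the background. Of the 13, 7 rested on 1 to 3 counts.

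H2ac6, an H2A gene at chr13:23681467-23683948 on the minus strand, had the highest count among them, with 2, 1, 2 and 0 counts in the untreated and 9, 17, 21 and 40 in the treated libraries (scaled ratio 18.4, 95% exact interval 7.59 to 58.1). The treated libraries differed widely but lay above all untreated ones. H4c14 went from 5 to 32 summed counts, H4c1 from 1 to 30 and H2bc3 from 1 to 19, without overlap of the groups. H4c8 (2 to 26 summed counts) and H3c4 (6 to 24) had overlapping groups. H3c15 and H2ac4 were at 0 in the untreated libraries and at 16 counts each in the treated ones. The lower 95% exact limit of their scaled ratio was 4.08. Against a floor of 3 counts over the untreated group the ratio was 5.64, without the error of the 16 counts. H2bc21 differed least among the more frequently counted genes, with 2, 7, 10 and 5 against 8, 9, 7 and 15 counts (scaled ratio 1.72, 1.01 to 2.99) and overlapping groups. Without a filter on low counts, edgeR called 22 of the 43 cluster genes with a count higher (51.2%) and 0 lower, against 23.0% higher and 20.8% lower among 27709 genes. The 22 comprised 5 H1, 2 H2A, 6 H2B, 4 H3 and 5 H4 genes.

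Summed over all 57 cluster genes, the level was 10.2, 9.95, 9.08 and 6.29 CPM in the untreated and 57.6, 61.5, 71.3 and 76.1 CPM in the treated libraries, a ratio of the means of 7.51. The groups were far apart. By family the ratio was 6.88 for H1 (6.23 to 42.9 CPM), 9.17 for H2B (2.09 to 19.1 CPM), 7.37 for H4 (0.340 to 2.51 CPM), 5.54 for H3 (0.156 to 0.866 CPM) and 19.6 for H2A (0.0647 to 1.27 CPM). The last 2 rest on 14 and 6 counts in the untreated libraries, and the H3 ratio was 9.01 without untreated replicate 1. H1f2 alone made up 66.7% ± 4.76 of cluster counts in the untreated and 55.7% ± 1.43 in the treated libraries (SD, n = 4 each). Without H1f2 and H2bc4 the sum went from 1.38 to 17.4 CPM, a ratio of 12.6, and it was again higher in every treated library (14.6 to 19.9 CPM) than in any untreated one (1.01 to 1.84 CPM). Of the 17.4 CPM, H2bc6 had 5.84 and H1f4 3.43. The 51 untested cluster genes together went from 0.878 to 5.11 CPM, a ratio of 5.82.

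**Figure D4:**
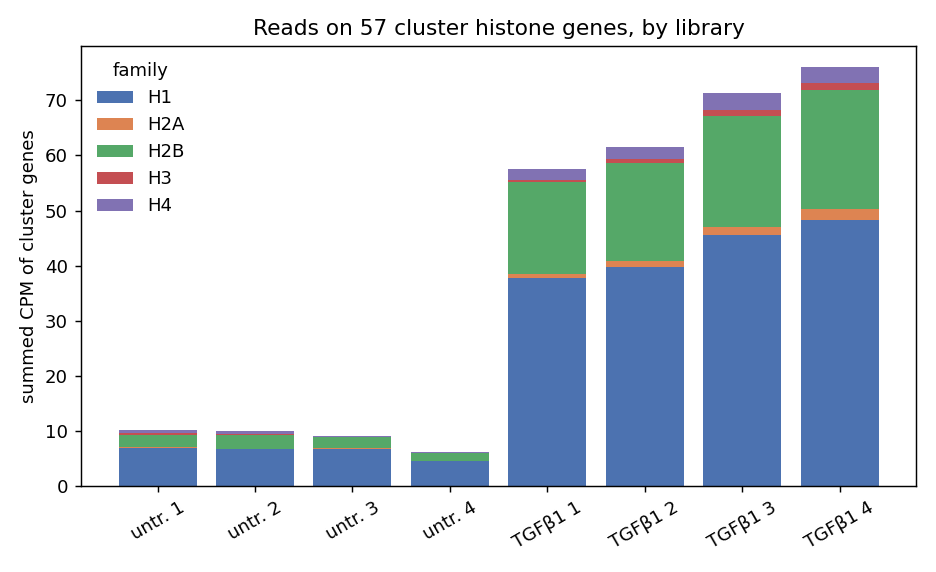
Summed CPM of the 57 cluster histone genes (vertical axis, from 0) in each library, stacked by family. The untreated libraries reach 6.29 to 10.2 CPM and the treated ones 57.6 to 76.1 CPM, with H1 and H2B genes making up most of each bar.

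By position, the upper stretch of chromosome 13 (23531050 to 23934851, 31 cluster genes) held 5 of the 6 tested cluster genes and 8.22 CPM in the untreated and 63.7 CPM in the treated libraries. The lower stretch (21715763 to 22043676, 16 genes) held H4c9 and went from 0.332 to 1.86 CPM. On chromosome 3 (96219865 to 96270132), 10 genes together went from 0.318 to 1.08 CPM and 0 were tested. Many cluster genes lie head to head, and 11 such pairs of members started within 1000 bases of each other. The pair with most reads was H2ac6 and H2bc4, which start 251 bases apart and went from 5 to 87 and from 147 to 1048 summed counts. In contrast, H2ac8 and H2ac20 stayed at 0 beside H2bc8 (4 to 19 counts) and H2bc21 (24 to 39 counts).

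Of the 6 tested cluster genes, 5 were annotated with at least 330 bases of exon beyond the stem-loop. The stretch after it was 330 bases in H4c9, 840 in H1f2, 1153 in H1f4, 1861 in H2bc6 and 4884 in H1f3. The untested genes with a stem-loop had a median of 57 bases (11 to 2010, the highest in H2ac6). With at least 300 bases, a limit chosen after the values were seen, there were 16 genes with 606 summed counts in the untreated and 4426 in the treated libraries. H1f2 alone had 534 and 3192 of these, and the other 15 genes had 72 and 1234. The 22 genes with a shorter stretch had 13 and 155, and the 19 without a stem-loop in the model had 189 and 1156, mostly from H2bc4. Longer models offer more bases for reads, and the annotation does not show which ends were used in SV-LECs. Both H3c6 (369 bases) and H3c14 (1167 bases) had 0 counts, and 59.4% and 100% of their 75-base stretches also occur in another gene. Few counts were also found with little shared sequence, as in H4c4 (770 bases, 3.67% shared, 1 and 4 counts), H4c3 (454 bases, 16.9%, 1 and 8 counts), H2bc9 (1214 bases, 12.5%, 4 and 9 counts) and H4c11 (385 bases, 21.9%, 1 and 2 counts).

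**Figure D5:**
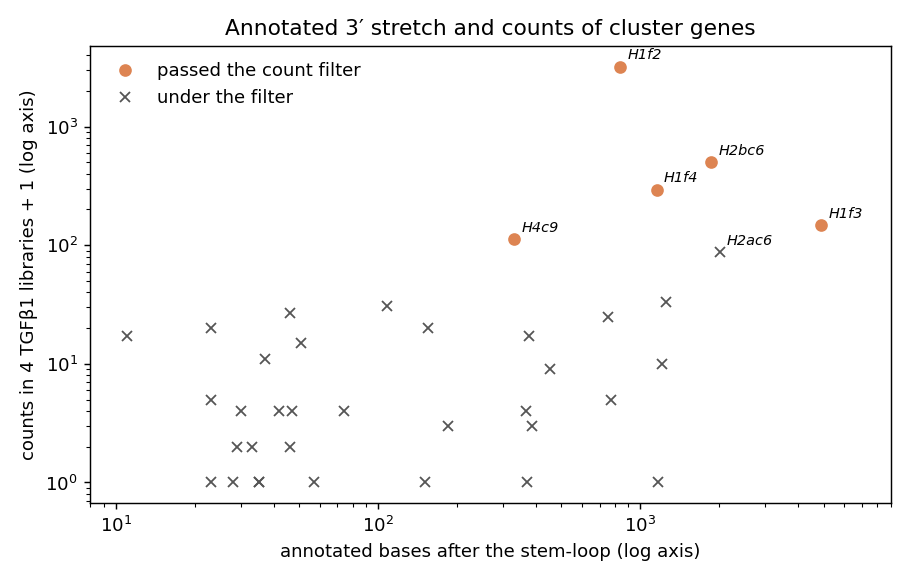
Summed counts of the 4 TGFβ1-treated libraries plus 1 (vertical log axis) against the annotated bases after the stem-loop (horizontal log axis) for the 38 cluster genes with a stem-loop. The 5 genes that passed the filter have 330 or more bases, and genes with long stretches and few counts also occur.

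Cluster genes differed in how much sequence they share with other genes. Among the untested cluster genes, a median of 47.4% of the 75-base stretches of a model also occurred in another gene, and in 25 of 51 the share was over 50%. In the 6 tested cluster genes the median was 18.3% (1.47% to 28.4%). Some untested genes, such as H2bc21 and H4c14, shared 0%. Where the share is high, counts can lack reads that fit several copies, and low counts then do not show low RNA. A further 8 cluster genes are listed under older symbols outside the rule, with 22 counts in Hist1h2bp (13 and 9 in 2 treated libraries) and at most 1 in each of the others.

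Replacement variants outside the rule were lower after TGFβ1 in 8 of 9 cases, with a median log2 fold change of -0.996. Over all genes tested, 38.0% were lower. H3f3b, which encodes the replacement histone H3.3, went from 853 ± 51.3 to 428 ± 34.6 CPM (SD, n = 4 each; log2 fold change -0.996, SE 0.0608, edgeR FDR 2.51e-58). Cenpa, the centromeric H3 variant, fell by 1.85 on the log2 scale, Macroh2a2 by 1.61, H2az2 by 1.24 and H2az1 by 1.07. H2aj was the exception and rose from 5.02 ± 2.21 to 22.0 ± 10.6 CPM (log2 fold change 2.13, SE 0.305, edgeR FDR 3.96e-11). H2aw, a histone gene outside the rule, is not among these 9 variants and was noticed after its values were seen. It had 14 to 16 counts in the untreated and 44 to 72 in the treated libraries.

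Genes for histone transcription and 3′ processing were mostly lower, by small amounts. Of 17 such genes 2 were higher, 11 lower and 4 neither, with a median of -0.21. Over all genes tested, 37.6% were higher and 38.0% lower. Slbp, for the stem-loop binding protein, fell by 0.21 on the log2 scale (SE 0.0457, edgeR FDR 9.05e-06). Npat, a coactivator of cluster histone genes, fell by 0.20 and Lsm11, of the U7 particle that guides cleavage, by 0.86. Hinfp, an activator of H4 genes, rose by 0.30 and Srrt, of the cap-bound RNA machinery, by 0.42. Of 22 tested histone chaperone genes 4 were higher, 15 lower and 3 neither (median -0.32). Asf1b fell by 1.24, Nasp, which carries linker and core histones, by 1.09 and Chaf1b, a subunit of the replication-coupled assembly factor CAF-1, by 0.87.

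Genes of DNA synthesis moved opposite to the cluster reads. All 16 of the list were tested and 16 were lower, compared with 38.0% of all genes tested. The log2 fold changes of the 16 ran from -1.35 (Mcm5) to -0.17 (Mcm4), with a median of -0.56. Their summed level was 4338 to 4520 CPM in the untreated and 2929 to 2987 CPM in the treated libraries. Thus reads on cluster histone genes in these poly(A) libraries were higher where these S-phase genes were lower. The part of the S-phase genes in the difference was not tested. In bulk RNA, fewer expressing cells and less RNA per cell cannot be told apart.

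Markers of other cell types were also examined, in a comparison where 37.6% of all genes tested were higher and 38.0% lower. Of 12 genes, 7 were tested, with 5 higher (Cd68, Krt18, Myh11, Des and Pdgfrb), 1 lower (Pdgfra, 160 to 57.8 CPM) and 1 neither. Their summed level was 239 to 261 CPM in the untreated and 185 to 201 CPM in the treated libraries, and Ptprc, Adgre1, Cd3e, Cd79a and Epcam had at most 7 counts in any library. Of the 11 lymphatic endothelial markers 5 were tested, with 3 higher, 1 lower and 1 neither, and a summed level of 425 to 460 and 449 to 462 CPM. Their part in the histone differences was not tested.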

How the data were processed

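RNA of SV-LECs was sequenced from stranded poly(A) libraries with single-end reads of 75 bases. The authors deposited raw read counts per gene, without normalization. Per the submitters' processing notes, bcl2fastq 2.20.0.422, STAR 2.7.3a and featureCounts 1.5.1 were used with GRCm38 (mm10). The annotation release, strand setting and treatment of reads that fit several genes are not given in the sources used here, and each can lower counts of near-identical histone genes.

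The deposited counts were tested with edgeR 4.0.16 under R 4.3.3, using filterByExpr with defaults, TMM factors, and the glmFit and glmLRT functions for TGFβ1 against untreated, with Benjamini-Hochberg FDR over all 13818 genes tested and a threshold of 0.05. Total counts were 18952504 to 26386941 per library. A floor of 3 counts corresponds to 0.113 to 0.162 CPM and covers counting error only, as do the exact intervals of count ratios. RPKM used the exon union of GENCODE M21. Replicate pairs differed by more than sampling noise (chi-square per degree of freedom 2.37 to 7.84). The pipeline was tested on simulated data.

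Every member and every gene of the fixed lists could be named. The members and lists were chosen with earlier results of these data known. Alternatives were the quasi-likelihood test, DESeq2 1.42.0, its size factors, total counts alone, no filter, 1 CPM in at least 4 libraries, the replicate block, each library left out and, chosen after seeing the data, the GC covariate.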

Additional observations from a re-analysis of the deposited data

Results flagged for a closer look

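Of 30 groups of values checked for a library far from the others, 1 stood out, and chance alone picks about 1 in 20. The summed level of the 6 cluster H1 genes was 4.51 CPM in untreated replicate 4, and the other untreated libraries had 6.94, 6.69 and 6.77 CPM. The gap was 0.896 of the range of the group, above Dixon's 95% limit for 4 libraries. Most of this sum was H1f2, at 4.31 CPM in this library, which lies farther from the treated libraries than the others do. Its cause was not tested. Without untreated replicate 4 the changes of all 8 tested histone genes kept their direction and their side of the threshold. For H1f3, H1f4, H2bc6 and H4c9 the filter largely fixed this.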

How the results depend on the processing

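The changes of H1f0 (-2.08 to -1.98), H1f10 (-1.99 to -1.58, highest FDR 1.24e-05) and the 6 tested cluster genes kept their direction and their side of the threshold under all 16 alternatives run with edgeR or DESeq2. For H1f3, H1f4, H2bc6 and H4c9, which passed the filter only through the treated libraries, this was largely fixed in advance. The GC covariate among the 16 was centred within groups, so it could not take up a GC difference between the group means. Without a filter on low counts, 24 members changed in place of 8 (22 higher, 2 lower), and the median of cluster genes was 2.35 in place of 3.04, over 43 genes in place of 6. With each library left out in turn, 8 to 9 members changed, and the median was 2.96 to 3.86. It was highest without untreated replicate 2, where H2ac6 passed the filter as the seventh cluster gene and its own change of 3.86 was the median. Over all genes 9852 to 12140 changed, compared with 10449. With total counts alone the median change of all genes was -0.07, compared with -0.01. The H1f0 to H1f10 difference was -0.37 to -0.06 with each library left out. With its longest transcript H2bc6 had 2.33 RPKM after TGFβ1, compared with 1.31.

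Replicate numbers did not pair the libraries: same-number correlations of the deviations were -0.193 to -0.0336 and the others -0.227 to 0.250. With the replicate block, 8 members and 10152 genes changed, the median of cluster genes was 3.09, H1f0 changed by -2.01 and H1f10 by -1.79, and the exact permutation p of the H1f0 to H1f10 ratio was 0.625. Depth limits the 51 untested cluster genes, each with at most 92 counts in 8 libraries.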
